A study of Homo sapiens with 18 samples.

Results

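The genes described here form the switch that lets a cell leave G1: the D cyclins CCND1, CCND2 and CCND3, their kinases CDK4 and CDK6, the pocket proteins RB1 and RBL2, and the INK4 inhibitors CDKN2A, CDKN2B and CDKN2C. Members were chosen by name. Every probe set annotated to exactly 1 of the 10 genes was read on all 18 arrays, which gave 25 of the 54675 probe sets, for 9 of the 10 genes. No value is given for CDKN2C, which no probe set of the annotation used names alone. For tests, each gene was read on its probe set of highest mean signal, and a gene was kept if that signal reached 5.36, the median of the whole table, on at least 3 arrays. CDKN2B reached it on 1 array, so 8 members were tested, among 14418 genes.

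The samples were human osteosarcoma cells from orthotopic tumors of MNNG/HOS (MNNG) and 143B, both established lines derived from the HOS osteosarcoma line and both marked with the fluorescent protein ZsGreen. The 2 MNNG_Lung arrays hold lung metastases of MNNG transplants, 1 labelled 1233 and 1 labelled Mix, and the labels give no dye fraction for them. The 3 143B_High arrays hold 143B bone tumor cells that kept PKH26, a membrane dye diluted at each division, and the 5 143B_Low arrays hold 143B bone tumor cells that had lost it. The 4 MNNG_High and 4 MNNG_Low arrays hold the same fractions of MNNG bone tumors. The labels call High cells tumor-initiating and Low cells bulk, and 150000 High and 700000 Low cells were sorted from each tumor. MNNG_High and MNNG_Low came from the same 4 tumors, and each 143B_High array shared its tumor or tumors with 143B_Low arrays, 2 of the 3 being pools of 2 tumors. Each line is a single cell line, so the tumors replicate growth of that line. In such bulk RNA, fewer cells of a type and less RNA per cell cannot be told apart.

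In the textbook circuit, a growth signal raises a D cyclin, which binds CDK4 or CDK6, and the complex phosphorylates RB1 and its relatives. The phosphorylated pocket proteins release E2F factors, which switch on genes for DNA replication. The INK4 proteins p16 (from CDKN2A), p15 (CDKN2B) and p18 (CDKN2C) bind CDK4 and CDK6 and block the D cyclins, and RBL2 joins the DREAM complex, which keeps cell-cycle genes silent in resting cells. The pathway is known as a frequent target of gene loss and amplification in osteosarcoma.

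Promoter windows of 250 bases before to 50 bases after a start site were available from RefSeq (GRCh38.p14) for 8 of the 10 members, 15 windows in all. CCND1 and CCND2 had no entry. The windows of CDK4 and CDK6, the paired kinases of the circuit, are shown because both hold the letters CACGTG, the E-box bound by MYC-family factors, printed in capitals. That string reads the same on both strands and was found in 7.26% of all 35116 windows. The CDK4 window lies at chr12:57752261-57752560 and the CDK6 window at chr7:92836524-92836823, each on the minus strand and each spanning the start of the gene.
CDK4: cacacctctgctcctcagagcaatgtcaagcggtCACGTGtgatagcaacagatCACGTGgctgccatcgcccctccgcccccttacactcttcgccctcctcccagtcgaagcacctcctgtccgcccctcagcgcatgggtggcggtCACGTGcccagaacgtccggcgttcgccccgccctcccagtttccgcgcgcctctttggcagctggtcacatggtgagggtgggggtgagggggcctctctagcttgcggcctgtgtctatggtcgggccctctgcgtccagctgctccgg
CDK6: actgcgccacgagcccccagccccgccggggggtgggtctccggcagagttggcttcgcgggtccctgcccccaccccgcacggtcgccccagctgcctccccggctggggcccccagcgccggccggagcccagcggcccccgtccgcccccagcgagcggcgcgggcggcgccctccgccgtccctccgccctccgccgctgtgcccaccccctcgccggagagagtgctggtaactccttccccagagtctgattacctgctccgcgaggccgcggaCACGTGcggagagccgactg
CDK4 held the E-box 3 times, with first bases at positions −216, −196 and −101 from the start site, and CDK6 held it once, at position 31. The E-box was also in 2 windows of CDKN2C. None of the 15 member windows held TTTCCCGC, TTTGGCGC, TTTGCCGC or TTTCGCGC, the E2F letters searched on both strands, which were in 3.31% of all windows. TTTGAA or TTCGAA, the letters of the CHR element at which DREAM is tethered, were in 1 member window, that of RBL2, and in 16.4% of all windows. The RB1 window in the table lies inside the gene, at chr13:48476200-48476499. These are matches of letters. No binding was measured.

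The plot of member levels gives the data behind what follows. CCND2 was high in 143B and dim in MNNG, while CCND1 and CCND3 were bright on the bone arrays of both lines. CCND1, CDK4, CDK6 and RB1 were bright on all 16 bone arrays, and CDKN2A and CDKN2B were near or below the table median in every bone group.

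**Figure D1:**
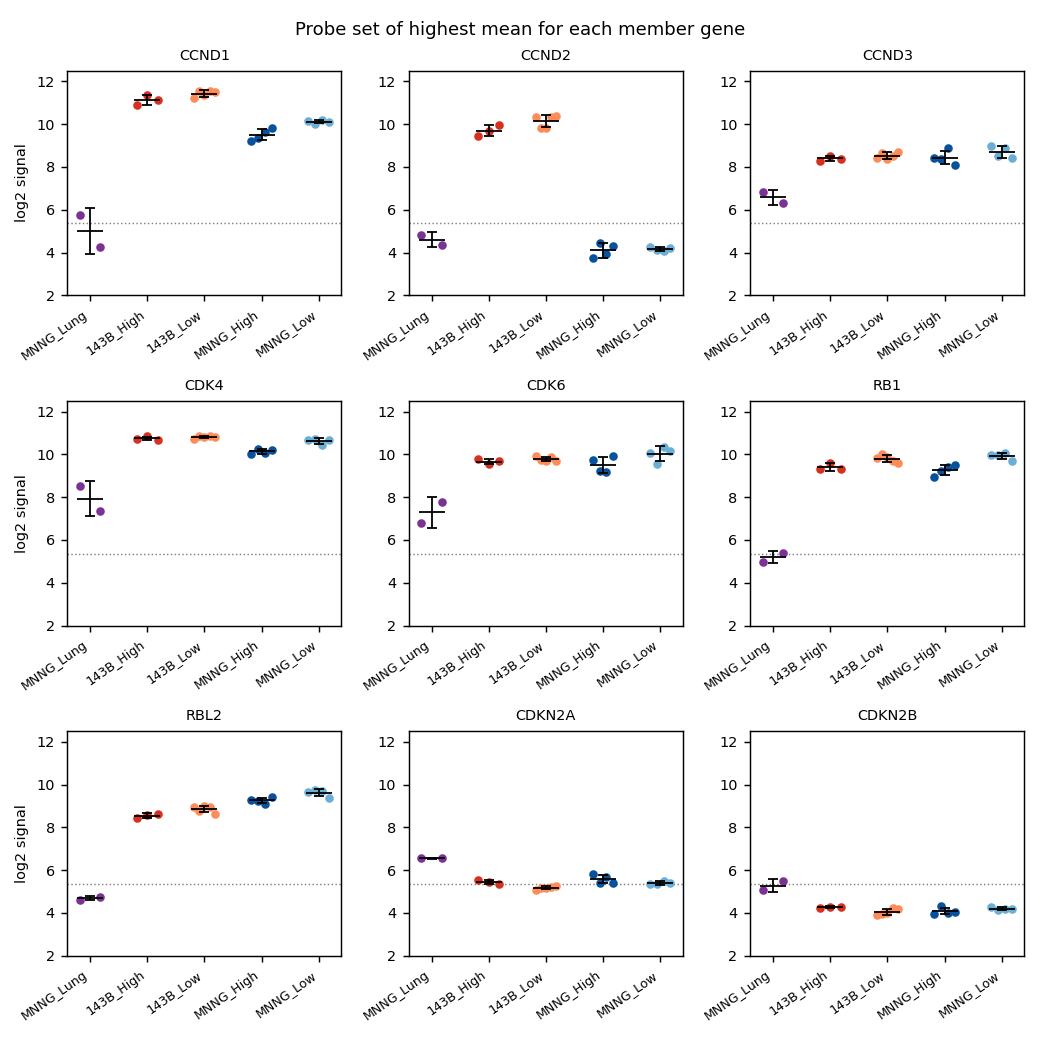
Log2 signal (vertical axis) of the probe set of highest mean for each of the 9 members with a probe set, by group (horizontal axis). Points are arrays, bars are group means with SD (n = 2, 3, 5, 4 and 4 from left to right), and the dotted line is the table median of 5.36. CCND2 stood at 9.44 or higher on all 143B arrays and at 4.84 or lower on all MNNG arrays.

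CCND1 (208712_at, gene at chr11:69641156-69654474) encodes cyclin D1, the D cyclin most often amplified in human cancer. Its log2 signal was 5.75 and 4.24 in MNNG_Lung, 10.90, 11.34 and 11.13 in 143B_High, and 11.20, 11.53, 11.34, 11.55 and 11.51 in 143B_Low. It was 9.23, 9.37, 9.64 and 9.80 in MNNG_High and 10.16, 10.01, 10.19 and 10.08 in MNNG_Low. Each 143B array was above each MNNG array, each MNNG_High array was below each MNNG_Low array, and the lung arrays were the lowest.

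CCND2 (200953_s_at, gene at chr12:4273762-4305353) encodes cyclin D2. Its log2 signal was 4.84 and 4.35 in MNNG_Lung, 9.44, 9.69 and 9.96 in 143B_High, and 10.35, 9.83, 9.84, 10.33 and 10.38 in 143B_Low. It was 3.73, 4.46, 3.92 and 4.33 in MNNG_High and 4.25, 4.11, 4.09 and 4.22 in MNNG_Low. The lines did not overlap, and all 10 MNNG arrays lay below the table median. CCND3 (201700_at, gene at chr6:41934933-42050035), the third D cyclin, varied least of the D cyclins among bone arrays. Its log2 signal averaged 8.40 ± 0.12 in 143B_High (SD, n = 3), 8.53 ± 0.15 in 143B_Low (n = 5), 8.44 ± 0.32 in MNNG_High (n = 4) and 8.70 ± 0.28 in MNNG_Low (n = 4).

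CDK4 (202246_s_at, gene at chr12:57747727-57752310) was bright on every bone array. Its log2 signal was 8.50 and 7.36 in MNNG_Lung, 10.73, 10.84 and 10.66 in 143B_High, and 10.70 to 10.85 on the 5 143B_Low arrays. It was 10.02, 10.26, 10.05 and 10.20 in MNNG_High and 10.69, 10.71, 10.44 and 10.66 in MNNG_Low. The MNNG_High arrays were below every other bone array. CDK6 (224847_at, gene at chr7:92604921-92836573) had a log2 signal of 6.78 and 7.79 in MNNG_Lung, 9.76, 9.53 and 9.68 in 143B_High, and 9.70 to 9.92 on the 5 143B_Low arrays. It was 9.72, 9.21, 9.20 and 9.93 in MNNG_High and 10.06, 9.55, 10.35 and 10.15 in MNNG_Low. The bone groups overlapped, and both lung arrays lay below them. CDK6 has 7 probe sets. The mean signal of 231198_at was 5.15 to 5.56 over the bone groups, and 243000_at and 235287_at had lower means over the 18 arrays, with 235287_at under the table median on every array.

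RB1 (203132_at, gene at chr13:48303751-48481890) encodes the retinoblastoma protein. Its log2 signal was 4.99 and 5.39 in MNNG_Lung, 9.31, 9.60 and 9.32 in 143B_High, and 9.81, 9.99, 9.89, 9.70 and 9.60 in 143B_Low. It was 8.95, 9.21, 9.39 and 9.51 in MNNG_High and 9.95, 9.95, 10.07 and 9.71 in MNNG_Low. High arrays were below Low arrays in both lines, without overlap. RBL2 (212331_at, gene at chr16:53434471-53491648), which encodes p130, was lower in 143B than in MNNG. Its log2 signal was 8.42, 8.55 and 8.64 in 143B_High and 8.86 ± 0.16 on average in 143B_Low (SD, n = 5), against 9.11 to 9.41 in MNNG_High and 9.36 to 9.76 in MNNG_Low.

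CDKN2A and CDKN2B lie beside each other on chromosome 9, at chr9:21967752-21995324 and chr9:22002903-22009313. CDKN2A encodes p16 and, from another first exon, the p53 regulator ARF. Its brightest probe set, 211156_at, averaged 6.55 ± 0.01 in MNNG_Lung (SD, n = 2), 5.46 ± 0.08 in 143B_High (n = 3), 5.18 ± 0.07 in 143B_Low (n = 5), 5.58 ± 0.19 in MNNG_High (n = 4) and 5.40 ± 0.07 in MNNG_Low (n = 4). On bone arrays these levels sit around the table median of 5.36, where a small difference cannot be set apart from background signal. A further CDKN2A probe set, 209644_x_at, had group means of 6.53 in lung and 5.24 to 5.65 in bone, and 207039_at stayed at 4.79 or lower on every array. The brighter CDKN2B probe set, 207530_s_at, ran from 3.89 to 4.31 on the bone arrays, and 236313_at was dimmer still. Of 6 neighbours of this locus, CDKN2B-AS1, ELAVL2 and IFNE did not pass the filter. MTAP, a methionine salvage gene next to CDKN2A, averaged 6.42 in MNNG_Lung, 4.74 in 143B_High, 5.00 in 143B_Low, 5.57 in MNNG_High and 5.14 in MNNG_Low. KLHL9, farther along the arm, averaged 8.09 to 9.25 in the bone groups, so the low signal was not shared by every neighbour.

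Some facts of the arrays touch these comparisons. The interquartile range of log2 signal was 2.09 to 2.28 in MNNG_Lung and 2.76 to 3.18 in MNNG_High, against 3.26 to 3.48 in 143B and 3.29 to 3.40 in MNNG_Low. The GAPDH control, 3′ minus 5′ signal, was 0.50 to 0.75 in MNNG_High and 0.34 to 0.41 in MNNG_Low. The hybridization controls averaged 13.46 to 14.58 in MNNG_Lung, 11.77 to 12.06 in 143B_High, 10.23 to 11.45 in 143B_Low, 11.58 to 13.04 in MNNG_High and 10.96 to 11.10 in MNNG_Low. A date tag in the sample descriptions puts all MNNG_High and lung arrays and 1 MNNG_Low array under tag 2, the other 3 MNNG_Low arrays under tag 1, and all 143B arrays under tag 3. As a check of the label, the osteoblast genes RUNX2, SPARC and COL1A1 averaged at least 8.66 in every bone group, while SP7, ALPL and IBSP were at 4.67 or lower there. On the lung arrays COL1A1 averaged 8.98, COL1A2 8.44, SPARC 7.00 and RUNX2 6.68, and SP7, ALPL and IBSP averaged 6.38, 6.04 and 6.58, above their bone levels. Over all probe sets r was 0.865 between the 2 lung arrays, against 0.956 to 0.995 within the bone groups.

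The first comparison asked whether dye-retaining and dye-diluted MNNG cells differ. RB1, CDK4 and RBL2 were lower in MNNG_High. RB1 fell by 0.65 on the log2 scale (SE 0.15, 1.57-fold lower, adjusted p = 0.00803), CDK4 fell by 0.49 (SE 0.17, 1.41-fold lower, adjusted p = 0.0444) and RBL2 fell by 0.36 (SE 0.13, 1.29-fold lower, adjusted p = 0.043). CCND1, at −0.60 (adjusted p = 0.0573), and CDK6, at −0.51 (adjusted p = 0.0796), did not pass the threshold of 0.05. The test was limma's across all 18 arrays with Benjamini-Hochberg adjustment over 14418 genes.

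The called members were 3 of 8, all lower. Over all genes 26.1% were called and 15.5% were called lower. The median difference was −0.43 over the 8 members and −0.19 over all genes. The groups did not overlap for CCND1, CDK4 and RB1, as they did not for 29.8% of all genes. CCND3 (−0.26), CCND2 (−0.06) and CDKN2A (+0.18) were not called. Within tumors, CCND1, CCND3, CDK4, CDK6 and RB1 were lower in the High array of all 4 tumors, and RBL2 in 3 of 4. The share of all genes lower in all 4 tumors was not counted, so this describes these genes only. The same-tumor differences of RB1 were −0.74 in tumor MNNG-1232, −0.68 in MNNG-1233 and −0.20 in MNNG-1235, and the fourth was lower still. They ran from −0.67 to −0.38 for CDK4 and from −0.93 to −0.28 for CCND1. RB1 and CCND1 differed least in tumor MNNG-1235 and most in tumor MNNG-1231.

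The called members were bright genes in MNNG_Low, and calls depended on brightness across the array. In bands drawn after the values were seen, 28.3% of the 4008 genes at 8 to under 10 in MNNG_Low were lower in MNNG_High, and 1.80% were higher. RB1, RBL2 and CCND3 belong to that band. Of the 1969 genes at 10 or more, where CCND1, CDK4 and CDK6 belong, 13.8% were lower. Among the 3696 genes under 6, where CCND2 and CDKN2A belong, 1.98% were lower and 27.2% were higher.

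The other bright CDK6 probe sets were called when all 26556 probe sets that passed the filter were tested. CDK6 was lower in MNNG_High by −0.58 on 224851_at (adjusted p = 0.044) and by −0.70 on 224848_at (adjusted p = 0.01). On its other probe set, 208711_s_at, CCND1 was at −0.51 (adjusted p = 0.0611), and RBL2 on 212332_at was at −0.22 (adjusted p = 0.297). CCND2 was higher by 0.72 on 200951_s_at (adjusted p = 0.0229), where the log2 signal was 5.08, 5.07, 5.43 and 4.50 in MNNG_High against 4.59, 4.31, 4.29 and 4.03 in MNNG_Low. Those CCND2 levels lie about the table median and below it. In all, 1 of the 19 member probe sets kept was higher and 5 were lower, against 9.53% and 16% of all probe sets (25.5% called).

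These calls depended on the fit. Among the settings tried RB1 kept its call in 30 of 32, CDK4 in 14 of 31 and RBL2 in 14 of 32, and leaving out any 1 of several arrays, 143B arrays among them, reduced the count to 1. Without the lung arrays 5 members were called, CCND1 (adjusted p = 0.00426) and CDK6 (adjusted p = 0.0282) in addition, and 5 were also called when the tumor was then added as a block. Genes called over the array were 6407 and 8044 in those 2 fits, against 3761 as reported. No member was called after a second quantile normalization, which moved the median of all genes to 0.01 and the share of calls that were higher to 72.8%, against 40.7% as reported. RB1 was then at −0.35, CDK4 at −0.25 and RBL2 at −0.06, and the members' median was −0.22. With date tag as a term the comparison rests on 1 MNNG_Low array, and calls were lost for the members as for nearly all genes. Within tag 2, the 4 MNNG_High arrays averaged 9.26 for RB1 against 9.95 on the single MNNG_Low array, and 10.13 for CDK4 against 10.69. All 4 MNNG_High arrays were below that array for CCND1, CCND3, CDK4, CDK6, RB1 and RBL2, which is 6 of 8 members, against 33.8% of all genes. That Low array comes from tumor MNNG-1231, where RB1 and CCND1 differed most.

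Markers of other cells moved with this comparison. The 11 macrophage and myeloid genes averaged 5.65 to 6.09 in MNNG_High and 5.00 to 5.15 in MNNG_Low, and 4 of the 7 tested were higher (AIF1, SPI1, FCER1G and C1QA). Genes tested and higher were also 1 of 3 endothelial, 2 of 3 muscle, 1 of 3 erythroid, 2 of 5 lung epithelial and 2 of 2 neutrophil genes, and none of the 3 T and B cell genes. Of the 7 neutrophil genes on the arrays, 1 averaged at or above the table median in MNNG_High. Over all genes 10.6% were higher. That share was 27.2% of the genes under 6 in MNNG_Low, where C1QA, ACTN3 and LTF belong, and 8.77% at 6 to under 8. The part of the marker genes in the result was not tested. With the GAPDH control added in the fit, RB1 was called at −0.66 (adjusted p = 0.0255), RBL2 was at −0.35 (adjusted p = 0.0983) and CDK4 at −0.29 (adjusted p = 0.21).

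The same comparison in 143B gave no called member. RB1, at −0.39 (SE 0.15), and CCND2, at −0.45 (SE 0.19), were the largest differences, with adjusted p of 0.879 and 0.905 in limma's test. These were read on the probe sets of highest mean, and other probe sets of CCND2 went the other way. CCND2 was at +0.50 on 200951_s_at, at +0.43 on 200952_s_at and at +0.08 with its probe sets averaged. RBL2 on 212332_at was at +0.22 and CCND1 on 208711_s_at at +0.08, and none of these was called. The RB1 signals of 143B_High, 9.31 to 9.60, lay below those of 143B_Low, 9.60 to 9.99, and the groups did not overlap for CDKN2A either, at +0.27. That is 2 of 8 members, against 11.9% of all genes. All 3 143B_High arrays were below the mean of the Low arrays of their own tumors for RB1, RBL2, CCND1, CCND2 and CCND3. The share of all genes for which this held was not counted. The same-tumor differences were −0.58, −0.30 and −0.33 for RB1 and −0.39, −0.40 and −0.39 for CCND2, and they ran from −0.17 to 0.06 for CDK4. The called members were 0 of 8, against 0.00694% of all genes. At an unadjusted p under 0.05 they were 4 of 8 (CCND2, RB1, RBL2 and CDKN2A), against 745 of the 14418 genes. The 95% intervals were −0.71 to −0.07 for RB1 and −0.44 to 0.31 for CDK4.

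Whether the High minus Low difference of a member differs between the lines was tested as an interaction in the same fit. No member was called, as for all but 1 gene (0.00694%). On the probe sets of highest mean none of the 8 had an unadjusted p under 0.05, against 1449 of the 14418 genes. CDK4 had the lowest p among the members so read, with a difference of −0.43 (95% interval −0.95 to 0.09, adjusted p = 0.528). Some other probe sets differed by more, though none was called. CDK6 was at −0.69 on both 224851_at and 224848_at, CCND1 at −0.59 on 208711_s_at and CCND3 at +0.64 on 1562028_at. A call in MNNG beside none in 143B is therefore not shown to be a difference between the lines.

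**Figure D2:**
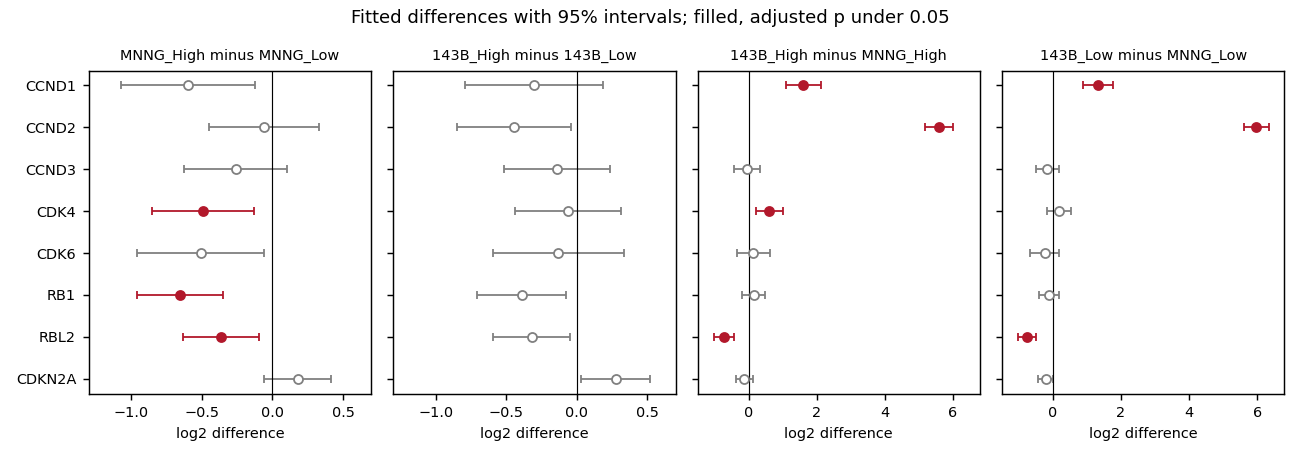
Fitted log2 differences (horizontal axis) of the 8 tested members in 4 comparisons, with 95% intervals. Filled points have an adjusted p under 0.05 over all genes. CCND2 stands at 5.59 and 5.98 in the comparisons of 143B with MNNG, and the High minus Low differences of all members lie between −0.65 and 0.27.

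Of the members, CCND2 and CCND1 differed most between the lines, and both were higher in 143B. On 200953_s_at, its probe set of highest mean, CCND2 reached the table median on the 8 143B arrays and on no other. So read, CCND2 passed the filter through the line where it is high. Its mean in 143B_Low was at least 27.5-fold above that of MNNG_Low with each MNNG array set to the table median. The fitted log2 difference of 5.98 rests on MNNG signals below that median, so no p-value is given for it. CCND1 was 2.49-fold higher in 143B_Low (fitted log2 difference 1.32, SE 0.21, adjusted p = 0.000112 in limma's test). RBL2 was 1.70-fold lower (−0.76, SE 0.12, adjusted p = 8.08e-05). In the High fractions CCND2 was at least 20.2-fold higher in 143B by the same bound (fitted 5.59), CCND1 3.06-fold higher (1.61, adjusted p = 6.33e-05) and RBL2 1.64-fold lower (−0.72, adjusted p = 0.000597).

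In limma's test 3 of 8 members were called between the Low fractions, 2 higher and 1 lower, where 28.8% of all genes were called (14.4% higher and 14.5% lower). CCND2, which passed the filter through 143B alone, is in this count and in the counts for overlap and for the High fractions. It adds no support to them. No overlap was seen for 4 of 8 members and 38.3% of all genes. Between the High fractions 4 of 8 were called, where 36.1% of all genes were called (21.4% higher and 14.7% lower), and 4 of 8 did not overlap, as for 42% of all genes. CDK4 was called there, 1.52-fold higher in 143B_High (0.61, SE 0.19, adjusted p = 0.0178), and the Low fractions differed by 0.18 (adjusted p = 0.477). CDK4 lost its call without the 143B_High array of pool 51&52 (0.56, adjusted p = 0.071) and after a second quantile normalization (0.43, adjusted p = 0.187). CCND3, CDK6 and RB1 had differences between −0.24 and 0.14 in either fraction and were not called. The RB1 interval was −0.41 to 0.17 between the Low fractions. Since all 143B arrays carry 1 date tag and no MNNG array carries it, line and tag cannot be told apart.

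The macrophage and myeloid genes averaged 5.12 to 5.48 in 143B_High, against 5.65 to 6.09 in MNNG_High, and 4 of the 7 tested were lower in 143B_High. In the Low fractions they averaged 4.88 to 5.03 in 143B and 5.00 to 5.15 in MNNG, and none of the 7 was called. Other marker genes tested and lower in 143B_High were LTF and CSF3R (neutrophil, 2 of 2), ACTA1 and ACTN3 (muscle, 2 of 3), SLC4A1 (erythroid, 1 of 3) and SFTPC (lung epithelium, 1 of 5), and LAMP3 of the last list was higher. Between the High fractions 14.7% of all genes were lower in 143B and 21.4% were higher. In 143B_Low ACTA1 was lower and LAMP3 higher. Their part in the members' values was not tested. Of the 5 osteoblast genes tested, 1 was higher and 4 were lower in 143B in either fraction.

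All 3 CCND2 probe sets that passed the filter were higher in 143B, by different amounts. Probe set 200951_s_at was higher by 2.30 in 143B_Low (adjusted p = 6.18e-08) and 200952_s_at by 1.49 (adjusted p = 0.000379). The other CCND1 probe set, 208711_s_at, was higher by 1.38 in 143B_Low and 1.97 in 143B_High. RBL2 on 212332_at was lower by −0.75 in 143B_Low (adjusted p = 0.00113) and not called in 143B_High (−0.31, adjusted p = 0.179). The member probe sets called were 7 of 19 between the Low fractions and 8 of 19 between the High fractions, against 27.1% and 32.7% of all probe sets. Between the Low fractions 5 were higher and 2 lower, against 13.6% each of all, and between the High fractions 6 were higher and 2 lower, against 20.4% and 12.3%. Each count of higher probe sets includes the 3 of CCND2, which read 1 gene. Of these, 200953_s_at passed the filter through 143B alone, so the CCND2 probe sets add no support to the counts.

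**Figure D3:**
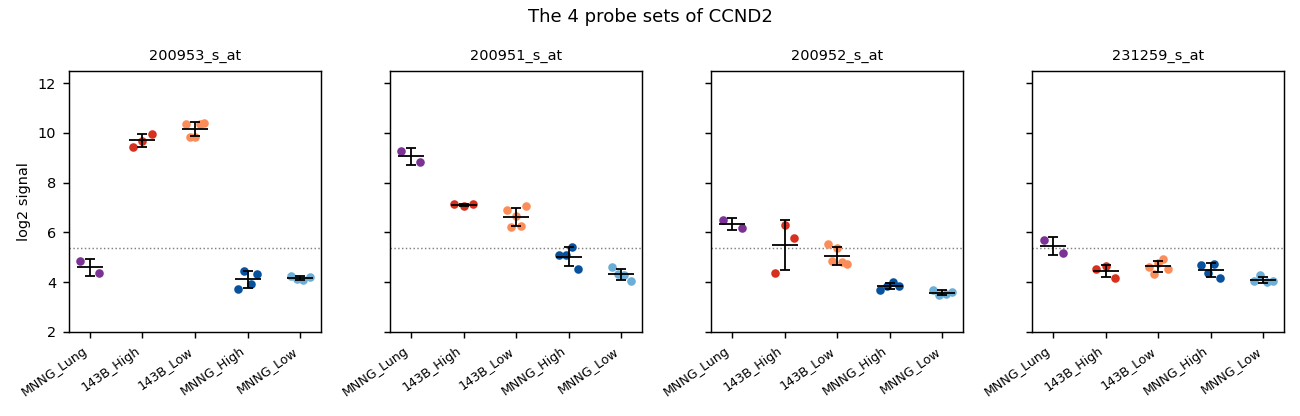
Log2 signal (vertical axis) of the 4 CCND2 probe sets by group (horizontal axis), with group means and SD. The dotted line is the table median. Probe set 200953_s_at is high in 143B alone, whereas 200951_s_at is highest on the 2 lung arrays, at 9.28 and 8.82.

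The lung metastasis arrays lay outside the range of the MNNG bone arrays for most members. CCND1, RB1, RBL2, CDK4, CDK6 and CCND3 were lower in MNNG_Lung than in MNNG_Low, and CDKN2A was higher. CCND1 differed by −5.12, RBL2 by −4.94, RB1 by −4.73, CDK6 by −2.74, CDK4 by −2.70 and CCND3 by −2.11, all with adjusted p of 2.83e-08 or less in limma's test. The log2 signal of RBL2 was 4.61 and 4.75 in MNNG_Lung, against 9.66, 9.76, 9.70 and 9.36 in MNNG_Low, and that of CCND3 was 6.84 and 6.33, against 8.98, 8.52, 8.90 and 8.41. Both lung arrays were far below every MNNG_Low array for both genes, and RB1, RBL2 and CCND1 were near or under the table median there. With lung signals below the table median set to it, CCND1 was at least 23.5-fold lower, RB1 at least 23.3-fold lower and RBL2 at least 19.1-fold lower. CDKN2A was 2.21-fold higher (1.15, SE 0.14, adjusted p = 3.12e-07), and CCND2, at +0.43, was not called (adjusted p = 0.0883). CCND1 and CDK4 differed between the 2 lung arrays themselves, at 5.75 and 4.24 and at 8.50 and 7.36.

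That count of 7 of 8 stands beside 87% of all genes called, 51.9% lower and 35.1% higher. Lung and MNNG_Low signals were apart for all 8 members and for 85.7% of all genes. The median difference was −2.72 over the members and −0.64 over all genes. After a second quantile normalization the members' median was −1.66, with CDK4 at −1.25, CDK6 at −1.67 and CCND2, still not called, at −0.28. Against MNNG_High 7 of 8 members were called as well, beside 82.4% of all genes (34.8% up and 47.6% down). For 7 of 8 members, and for 77.6% of all genes, lung and MNNG_High did not overlap. The medians were −2.22 for the members and −0.37 for all genes. The 2 comparisons share the lung arrays, so the second adds no independent support. With 2 lung arrays, the spread is taken from all groups in the fit.

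The direction followed how bright a probe set was in bone. Of the 25 member probe sets, the 10 with a mean of at least 7 in MNNG_Low were all lower on both lung arrays than on all 8 MNNG bone arrays. Of the 15 dimmer ones, 9 were above all 8 bone arrays, 5 overlapped and 1 was below. Genes of the whole array did likewise, in level bands drawn after the values were seen. In the 1969 genes at 10 or more in MNNG_Low the median lung difference was −4.09 and 92.5% were lower, and in the 3696 genes under 6 it was +1.42 and 83% were higher. CCND1, CDK4 and CDK6 fell in the first band and CDKN2A and CCND2 in the second.

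**Figure D4:**
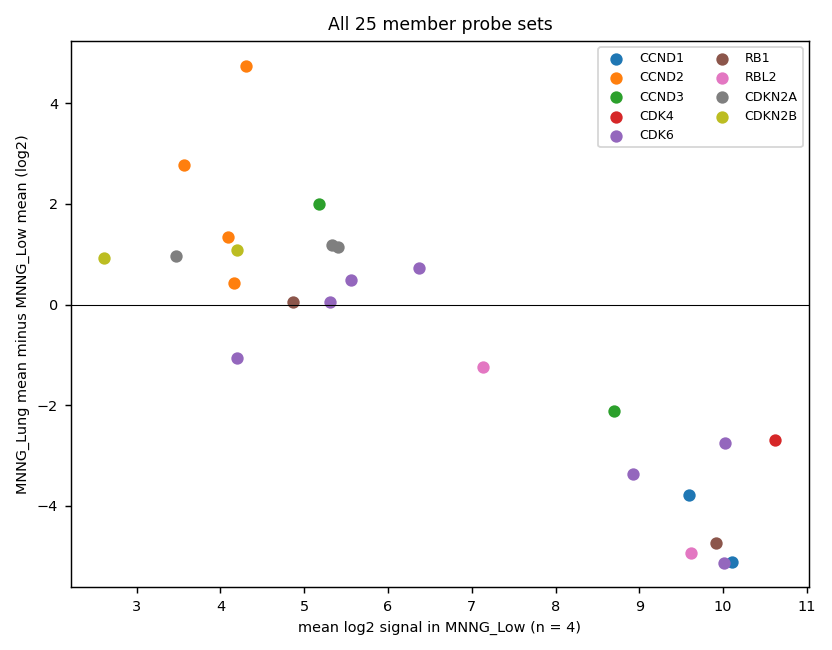
MNNG_Lung mean minus MNNG_Low mean (log2, vertical axis) against the MNNG_Low mean (log2, horizontal axis) for the 25 member probe sets, coloured by gene. Probe sets at 7 or more lie below 0, and most of the dimmer ones lie above it, with 200951_s_at of CCND2 the highest at 4.74.

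Probe sets of 1 gene disagreed on the lung arrays. On 200951_s_at, CCND2 had a log2 signal of 9.28 and 8.82 in MNNG_Lung, against 4.59, 4.31, 4.29 and 4.03 in MNNG_Low. With MNNG_Low set to the table median, CCND2 was at least 12.9-fold higher on that probe set (4.74, SE 0.26, adjusted p = 4.72e-12) and at least 1.96-fold higher on 200952_s_at (2.76), while 200953_s_at was at +0.43. CCND3 was at least 3.51-fold higher on 1562028_at and 4.33-fold lower on 201700_at. CDK6 was lower on 224851_at (−5.12) and 224848_at (−3.37) and higher on 207143_at (0.72, adjusted p = 0.00118). RBL2 was lower on 212332_at by −1.25. With a gene's probe sets averaged, CCND2 was called higher (2.32, adjusted p = 6.1e-10) and CCND3 was not called (−0.06, adjusted p = 0.747). Of 19 member probe sets kept, 6 were higher and 10 lower, against 35.1% and 49.3% of all (84.4% called).

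Markers of other cells were higher on the lung arrays too. All 11 macrophage and myeloid genes reached the table median there, with averages of 6.96 to 7.02, against 5.00 to 5.15 in MNNG_Low, and 7 of 7 tested were higher. The 6 lung epithelial genes averaged 6.83 to 6.93, against 5.57 to 5.70 in MNNG_Low, with 4 of 5 tested higher. The lists for erythroid cells (3 of 3), endothelium (3 of 3), neutrophils (2 of 2), muscle (2 of 3) and T and B cells (2 of 3) were also higher in the genes tested. Over all genes 35.1% were higher. That share was 83% of the genes under 6 in MNNG_Low, where C1QA, CLDN5 and LTF belong, and 36% at 6 to under 8. The part of the marker genes in the members' values was not tested.

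The rest of the circuit was read from 6 lists of partner genes, chosen with earlier results of these data known. In MNNG_High, 6 of the 8 G1-S kinase and cyclin partners were lower than in MNNG_Low, with a list median of −0.51 against −0.19 for all genes, of which 15.5% were lower and 10.6% higher. They included CCNE2 (−0.65), an E cyclin, CDK2 (−0.61), its kinase, and CDK7 and MNAT1 (−0.51 each), of the complex that activates CDKs. Among E2F target genes 9 of 18 were lower and none was higher, with a median of −0.43. Across the array the largest share lower in any brightness band was 28.3%, in bands drawn after the values were seen. The list was not compared with genes of like brightness. After a second quantile normalization 286 genes of the array were called lower and 767 higher, against 2229 and 1532 as reported. Calls of the list genes were not read under that setting. With date tag as a term, which leaves 1 MNNG_Low array, nearly all calls of the array were lost, so the list counts do not hold there. UHRF1 fell by 0.76 (adjusted p = 0.00656), EZH2 by 0.64 and the helicase subunits MCM2 and MCM3 by 0.54 and 0.51.

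The factors that bind the pocket proteins did not all move one way in MNNG_High. E2F4, the repressive partner of RBL2, was higher by 0.67 (adjusted p = 0.00749), as were E2F1 (0.51) and LIN37 (0.44), a DREAM subunit. TFDP1 (−0.48) and E2F5 (−0.52) were lower, so 3 of 16 were higher and 2 lower. Of 5 other CDK inhibitors only CDKN3 was called (−0.79, adjusted p = 0.00435), and CDKN1A and CDKN1B were not. Of 10 turnover genes, SKP2, the ubiquitin ligase subunit that removes p27, was lower by 0.79 on the log2 scale, and FBXW7 (0.67), which targets cyclin E, and CRYAB (0.73), a cofactor in cyclin D1 turnover, were higher. In 143B_High none of the genes of the 6 lists was called against 143B_Low, where 1 gene of the array was.

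In 143B_Low, 9 of the 18 E2F targets were higher than in MNNG_Low and none was lower, with a median of 0.49 against −0.04 for all genes, of which 14.4% were higher. CDC6 (1.12), MCM3 (1.08), RRM1 (1.13) and FEN1 (0.97) had the lowest p. CCNE1 (0.77), CCNE2 (0.75) and CDC25A (1.06) were higher and CDK7 (−0.44) was lower. CDKN1C, which encodes the inhibitor p57, was higher by 1.82 (adjusted p = 4.87e-07), the repressor E2F8 by 2.02 and SKP2 by 1.17, while MYBL1 was lower by −2.01 and CKS1B by −0.99. In the High fractions 14 of the 18 E2F targets and 6 of the 8 G1-S genes were higher in 143B, against 21.4% of all genes. No share by brightness was computed for the lines. After a second quantile normalization 1836 genes were called higher in 143B_High, against 3081 as reported. On the lung arrays all 18 E2F targets were lower than in MNNG_Low (median −4.19), where 92.5% of all genes at 10 or more and 87.9% of those at 8 to under 10 were lower, with medians of −4.09 and −2.59.

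**Figure D5:**
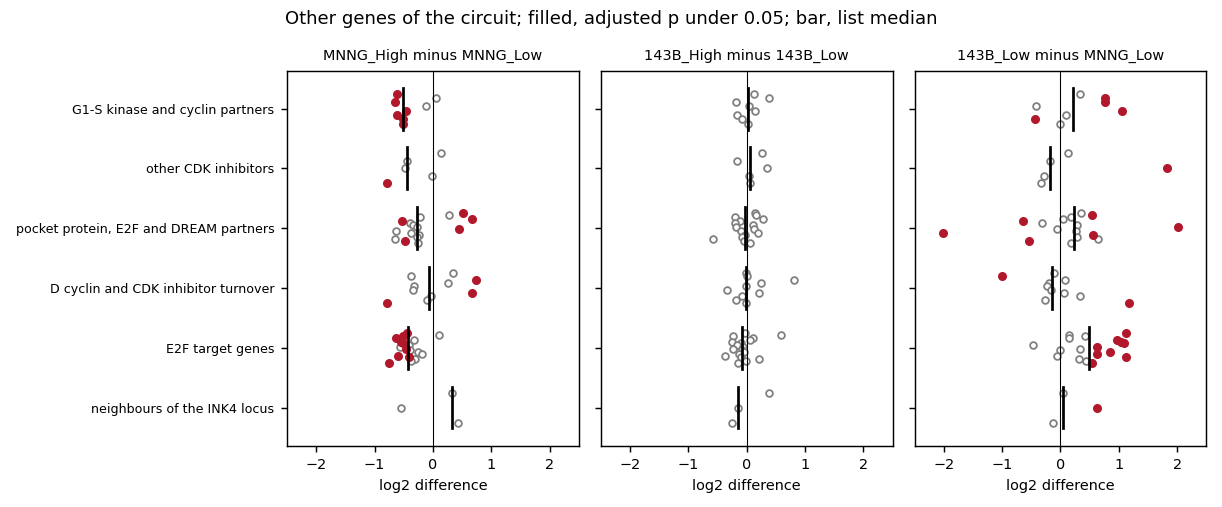
Log2 differences (horizontal axis) of the tested genes of 6 partner lists (rows) in 3 comparisons. Each point is a gene, filled where the adjusted p over all genes was under 0.05, and the bar is the list median. Most filled points lie below 0 for MNNG_High minus MNNG_Low and above 0 for E2F targets in 143B_Low minus MNNG_Low, and none is filled for 143B_High minus 143B_Low.

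The genes most like a member were named for the 3 members whose group means varied most, by Pearson's r over the 18 arrays. RTN1 (r = 0.996) and CHRNA1 (r = 0.993) were most like CCND2. RTN1 averaged 4.31 in MNNG_Lung, 8.61 in 143B_High, 8.95 in 143B_Low, 3.59 in MNNG_High and 3.37 in MNNG_Low. PFN2 (r = 0.996) and RPS21 (r = 0.995) were most like CCND1, and SLC25A46 and ZFAND1 (r = 0.993 each) were most like RBL2. The arrays share tumors and fall into clusters by line and site, so these values describe a shared pattern of groups.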

How the data were processed

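The arrays hold total RNA labelled with a 3′ kit. The deposited values are log2 signals of 54675 probe sets. RMA is the tool that the submitters' processing notes name for them, and its version and the set of arrays it was run on are not stated there. RMA quantile-normalizes, so a change shared by most genes can be hidden. Groups, tumors and pools came from titles. Genes were named from the platform annotation: 41097 probe sets had 1 gene symbol, 1801 several and 11777 none.

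Each gene was read on its probe set of highest mean signal among those of 1 gene, and kept at 5.36 (the table median) or more on at least 3 arrays. Fits used limma 3.58.1 in R 4.3.3 (lmFit, contrasts.fit, eBayes, two-sided, 5 group means, all 18 arrays), with Benjamini-Hochberg adjustment over 14418 genes and a threshold of 0.05. The number of arrays limits the precision. The scripts were tested on simulated data. The 7 comparisons share groups.

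The text names all members and their probe sets, up to 4 genes of lowest p per partner list and comparison, and the 2 genes most correlated with each of 3 members. E2F5 and the level bands were chosen after their values were seen. The 10 members, 6 partner lists and 8 marker lists were chosen with earlier results of these data known. MNNG High and Low arrays pair by tumor: deviations from group means correlated at 0.494, 0.37, 0.299 and 0.579 within tumors. Alternatives changed the filter, the scaling, the probe set rule, covariates, weights, moderation and the arrays used. Sequences came from RefSeq (GRCh38.p14). CDKN2C was not analysed here beyond its promoter windows.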

Additional observations from a re-analysis of the deposited data

How the results depend on the processing

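Across all alternatives run, no member call changed direction. The count of members called between MNNG_High and MNNG_Low (3 as reported) was 0 after a second quantile normalization and 0 with date tag as a covariate, which compares MNNG_High with 1 MNNG_Low array. It was 1 with the GAPDH control as a covariate, where 1547 genes were called. It was 5 after median centring, 5 with array weights, 5 without the lung arrays and 5 with the replicate block added to that fit. Genes called over the array were then 4700, 5670, 6407 and 8044, against 3761 as reported. The block itself left the members' count as it was and raised that of all genes. The members' count ran from 1 to 5 when each array was left out in turn. It fell to 1 without any 1 of the 3 143B_High arrays, without the Low array 143B-1251, 143B-1252, 143B-1253 or 143B-1254, and without either array of MNNG-1231 or MNNG-1233. It reached 5 without the High array of MNNG-1235 or without either lung array. The count between 143B_Low and MNNG_Low (3) was 5 with probe sets averaged, and between 143B_High and MNNG_High (4) it was 2 without the _x_at and _s_at probe sets, which removes CDK4 and CCND2 from the test. The counts of 143B_High against 143B_Low and of the interaction stayed 0, and the lung counts ran from 6 to 8. No block could be fitted to the comparisons of lines, since tumors lie within lines. Genes called between MNNG_High and MNNG_Low ran from 3 to 8044, between 143B_High and 143B_Low from 0 to 201, and in the interaction from 0 to 234. Between the Low fractions of the lines they ran from 3199 to 7024, with 7206 of 26556 probe sets when every probe set was tested, and between the High fractions from 3465 to 7686, with 8694 probe sets. Between lung and MNNG_Low they ran from 9886 to 17447, with 22414 probe sets, and between lung and MNNG_High from 8930 to 16487, with 20834 probe sets. Scaling moved the median High minus Low difference of all genes in MNNG between −0.30 (median centring, 20.6% of calls higher) and 0.01. The median of all genes for lung minus MNNG_Low ran from −1.05 to −0.11. Signals near 5.36 limit what CDKN2A and CDKN2B can show.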
